A study of Homo sapiens with 4 samples.

Results

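In Jurkat cells, a human T-cell acute lymphoblastic leukaemia (T-ALL) line, the 88300 IGF2BP2-binding peaks that lay wholly inside introns were the subject of the comparisons below. They were drawn from 283649 peaks in 2 lists, 1 for each iRIP-seq library (an immunoprecipitation of UV-crosslinked RNA) made with an antibody against IGF2BP2. A peak was counted when the region annotation of the deposited list named intron as its only region, with a share of 1 of its length. All libraries came from Jurkat cells grown in the same medium, and the labels name no knockdown, transgene or treatment. The 2 input libraries had served to remove overlapping peaks and were not analysed here, so the comparisons are between the 2 immunoprecipitations and between regions within them. The labels do not say whether replicate 1 and replicate 2 came from separate cultures, so their spread may be technical.

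IGF2BP2 is an RNA-binding protein of the insulin-like growth factor 2 mRNA-binding family and a reader of N6-methyladenosine (m6A), known mainly for stabilising mature mRNAs in the cytoplasm. Introns are transcribed with the exons and spliced out in the nucleus, and some of them carry small RNAs such as snoRNAs and microRNAs that are cut out of the intron. An intron of one annotated transcript can also cover exons of another gene, as with read-through transcripts that join neighbouring genes.

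Replicate 1 held 46605 such peaks among 145715 (32.0%, 95% Wilson interval 31.7 to 32.2) and replicate 2 held 41695 among 137934 (30.2%, interval 30.0 to 30.5). The difference between the libraries was small but larger than counting error (odds ratio 1.09, two-sided Fisher exact test on peak counts, p = 5.91e-24). These intervals and tests cover the counting of peaks, and peaks of 1 gene share a transcript. In both libraries the peaks were split evenly between the strands (51.3% and 51.5% on the plus strand). Sequencing depth is unknown for both, because the lists give peak heights and no read totals.

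Most intron peaks were as low and as short as the lists allow. The height is given in tags. Multiplied by the number of 50-nt bins of the peak, it came out whole for 100% of the intron peaks (within 0.01 tags per bin), as a mean over bins would. The list of replicate 1 began at a height of 4 and that of replicate 2 at 5, and 79.6% and 71.5% of the intron peaks stood exactly at this minimum. The highest reached 50 and 131 tags. At least 10 tags were reached by 106 peaks of replicate 1 (0.227%) and by 384 of replicate 2 (0.921%). A single bin, listed as 51 nt, was the length of 98.3% and 96.9% of the peaks, and the longest covered 251 and 401 nt.

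Few of these peaks were found again at the same place. A peak of the other replicate on the same strand overlapped 1355 of the intron peaks of replicate 1 (2.91%, interval 2.76 to 3.06) and 1342 of those of replicate 2 (3.22%, interval 3.05 to 3.39). Over all peaks of every region the shares were 9.19% and 9.62%. Where an intron peak was overlapped, the partner was itself wholly intronic in 99.2% and 99.6% of cases, and in 63.2% and 63.9% it had the same start and end. Peaks wholly in coding sequence (CDS), 5843 and 7040 in number, were overlapped in 30.5% and 22.0%. The two-sided Fisher exact test separated introns from CDS in each library with an adjusted p below the smallest number that could be stored (22 tests, Benjamini-Hochberg). The test counts peaks of the same transcript as separate units. A region tiled more densely also has more chances of an overlap. Neither share was set against the length of sequence in its region or a random placement, here or by height.

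The gap between introns and CDS was present at every height. Of intron peaks from 4 to under 5 tags in replicate 1, 1.77% were overlapped, against 20.9% of CDS peaks of that height. At 10 tags or more, 41 of 106 intron peaks (38.7%, interval 30.0 to 48.2) and 127 of 187 CDS peaks (67.9%, interval 60.9 to 74.2) were overlapped in replicate 1, beside 64.4% of all peaks that high (adjusted p = 2.65e-06, Fisher exact test). In replicate 2 the counts were 132 of 384 (34.4%, interval 29.8 to 39.3) and 379 of 648 (58.5%, interval 54.7 to 62.2), beside 54% of all peaks (adjusted p = 1.48e-13, Fisher exact test). The share of all peaks that were wholly intronic fell with height as well, from 34.2% at 4 to under 5 tags to 4.32% at 10 tags or more in replicate 1.

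**Figure D1:**
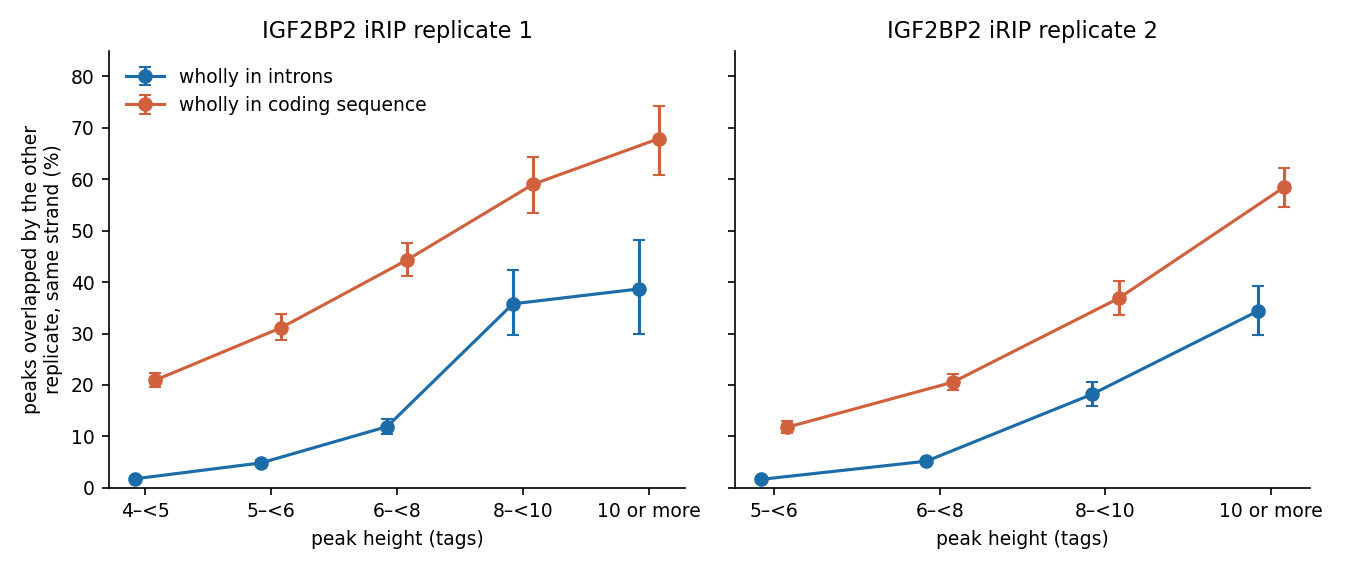
Share of peaks overlapped by the other replicate on the same strand (percent) against peak height in tags, for peaks wholly in introns and wholly in coding sequence. Bars are 95% Wilson intervals. The intron points lie below the CDS points in every height class of both libraries, with 38.7% against 67.9% at 10 tags or more in replicate 1.

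The other strand was also examined. A peak on the opposite strand overlapped 0.644% of the intron peaks of replicate 1 and 0.655% of those of replicate 2, below the 1.68% and 2.89% over all peaks. For peaks wholly in CDS the shares were 0.531% and 0.355% (adjusted p against introns = 0.369 and 0.00311, Fisher exact test). A low share was thus not particular to introns. Among the tall intron peaks the share was higher, 9 of 106 in replicate 1 and 37 of 384 in replicate 2, against 1 of 187 and 3 of 648 CDS peaks (adjusted p = 0.000923 and 2.60e-13, Fisher exact test). Of these, 8 of the 9 and 12 of the 37 lay on ribosomal RNA genes, with the strand of those genes ignored. The test counts peaks of the same ribosomal RNA genes as separate units. Without peaks on those genes, 1 of 89 tall intron peaks in replicate 1 (1.12%) and 25 of 359 in replicate 2 (6.96%) had an opposite-strand peak. Outside ribosomal RNA genes the libraries therefore differed, and the share in replicate 1 rested on a single peak. The shares without those genes were not tested.

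The intron peaks were spread over many genes. They carried 13540 gene identifiers in replicate 1 and 12316 in replicate 2, of which 8937 were shared, or 66.0% and 72.6% of each list. A single intron peak was all that 5714 and 5462 identifiers had. At the other end, 206 and 172 identifiers with 20 peaks or more held 16.4% and 18.9% of the peaks, and the 10 richest of each library held 3.40% and 5.13%. Of the shared identifiers, 3993 (44.7%) also had a CDS or UTR peak in either library. Across the 8937 shared identifiers the number of intron peaks per identifier in the 2 libraries had a Spearman rho of 0.617. Peak number moved with gene length, with a rho of 0.615 and 0.526 between peak number and RefSeq gene length over 6065 protein-coding genes; genes are not independent replicates, and both values are descriptions.

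A small set of genes stood out by the number of intron peaks. CHST11, a carbohydrate sulfotransferase of chondroitin sulfate synthesis, held 292 peaks in replicate 1, over chr12:104457800-104753950 in GRCh38, and 355 in replicate 2, over chr12:104458000-104755350. RUNX1, a transcription factor of blood cell development, held 265 and 352. GSE1, a coiled-coil protein found in corepressor complexes, held 220 and 273. HDAC4, a class II histone deacetylase, held 206 and 295. These 4 genes had the most peaks in both libraries by the lower of the 2 counts, and each count was larger in replicate 2 although that library had fewer intron peaks in all.

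The next in order were PRKCA, a protein kinase C, with 142 and 202 peaks, and LDLRAD4, a membrane protein that restrains TGF-beta signalling, with 124 and 183. ANKRD11, a chromatin regulator with ankyrin repeats, followed with 95 and 150, and WWOX, an oxidoreductase over a common fragile site, with 87 and 118. PIEZO1, a mechanically gated ion channel, held 70 and 73. The remaining member of the first 10 was the identifier ENSG00000288630.1 with 82 peaks in each library, described further below. Counts were not divided by gene length. Among the named genes of the first 10, RefSeq length ran from 69.9 kb in PIEZO1 to 1113 kb in WWOX.

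Repeated positions were frequent in some of these genes, beside 2.91% over all intron peaks of replicate 1. In that library, 77 of the 292 CHST11 peaks (26.4%), 80 of the 265 RUNX1 peaks (30.2%), 67 of the 220 GSE1 peaks (30.5%) and 49 of the 206 HDAC4 peaks (23.8%) were overlapped by replicate 2. PRKCA had 14 of 142 and WWOX 3 of 87, so a high count did not always come with a high overlap. A gene tiled more densely also has more chances of an overlap, and density differed between these genes. Intron peaks of replicate 2 covered 7.75% of their own span in CHST11, 5.19% in HDAC4, 4.24% in GSE1 and 1.98% in RUNX1. The values were 2.26% in PRKCA and 0.594% in WWOX, so their lower overlap went with a lower or similar coverage. The overlapped share was not set against a random placement. Heights in these genes stayed low. Medians per gene ran from 4 to 5 tags in the first library and from 5 to 6 in the second. The maxima were 11 and 13 tags in CHST11, 11 and 17 in RUNX1 and 12 and 15.5 in GSE1.

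Grouped by the number of intron peaks per identifier, the share overlapped was 0.910% for identifiers with 1 peak and 19.3% (interval 17.8 to 20.8) for the 28 identifiers with 50 or more in replicate 1. In replicate 2 it was 0.915% and 15.2% (interval 14.1 to 16.4), the latter over 35 identifiers. Antisense peaks of the same identifiers, listed for the gene but on the other strand, were counted as well. The groups were formed by the intron count, which is also the numerator of the ratio to antisense peaks. A rise of this ratio across the groups is therefore partly built in. There were 1.60 intron peaks per antisense peak among identifiers with 1 intron peak and 9.44 among those with 50 or more in replicate 1, and 1.63 and 12.8 in replicate 2. HDAC4 had 4 antisense peaks in each library beside its 206 and 295 intron peaks, and CHST11 had 5 and 8.

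Within a gene the spacing of the peaks was uneven. The distance from one intron peak to the next of the same identifier had a median of 12250 nt in replicate 1 and 9300 nt in replicate 2. It was at most 1000 nt for 11.8% and 17.9% of 33065 and 29379 neighbouring pairs. For the 141 identifiers with at least 20 intron peaks in each library, the coefficient of variation of these distances was computed, which is 0 for even spacing and about 1 for unordered spacing. Its median was 1.15 and 1.17. It was above 1 in both libraries for 83 of the 141 and below 1 in both for 16, with a Spearman rho of 0.307 between the libraries.

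The highest coefficients of variation, by the lower library, were those of RUNX1 and GSE1. GSE1 had 3.51 and 4.77. Of its peaks, 122 of 220 in replicate 1 and 143 of 273 in replicate 2 lay within a single 50-kb window, at chr16:85557650-85607600 and chr16:85557100-85607050. With the gene divided into 5 equal bins from 5′ to 3′, the last bin held 69.5% and 70.3% of its peaks, and the first held 1.36% and 1.83%. RUNX1 had 4.68 and 3.88, and this went with few peaks far from the rest. Its peaks spanned 1152 and 1114 kb against a RefSeq gene of 262 kb, with 11 and 20 of them outside that interval. Without these outside peaks, a setting chosen after seeing the data, the coefficient fell to 1.46 and 1.49. The densest 50 kb of RUNX1 held 86 and 103 peaks (32.5% and 29.3%), close to the 30.5% and 27.6% of CHST11 and below the 35.5% and 41.0% of LDLRAD4.

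MYO7B, an unconventional myosin of epithelial microvilli, was the third of the most clustered identifiers. It held 36 and 30 intron peaks, of which 80.6% and 96.7% lay in the last of the 5 bins, and 14 of the 36 were overlapped. Its 3′ part therefore carried intron peaks in both libraries while the rest of the gene carried 7 in replicate 1 and 1 in replicate 2. The other identifiers of this kind were ENSG00000280441.3, over ribosomal RNA genes on chromosome 21, and ENSG00000181215.15 on chromosome 4. In PIEZO1 and ELOVL5, a fatty acid elongase, the first of the 5 bins held the most peaks (37.1% and 38.4%, and 46.2% and 35.8%), and their coefficients of variation were 1.04 and 1.44 for PIEZO1 and 1.17 and 1.24 for ELOVL5, against medians of 1.15 and 1.17 over the 141 identifiers.

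CHST11 had coefficients of 1.06 and 1.17, close to those medians, and peaks in every part of the gene. Its successive bins held 22.9%, 18.8%, 28.4%, 19.9% and 9.93% in replicate 1 and 28.2%, 18.9%, 23.7%, 22.3% and 7.04% in replicate 2, fewest in the last. The most even identifiers were CYTH1, a guanine nucleotide exchange factor of ARF proteins, DPYD, which breaks down pyrimidines, ENSG00000176124.15, DLG2, a synaptic scaffold protein, and DENND1A, an exchange factor of Rab proteins. DPYD held 29 and 23 peaks and DLG2 28 and 20, with coefficients of variation from 0.588 to 0.852 in DPYD and DLG2. None of the peaks of DPYD, DLG2 or ENSG00000176124.15 was overlapped by the other library, and CYTH1 and DENND1A had 1 overlapped peak each. Peaks this sparse leave little room for an overlap. Those of replicate 2 covered 0.151% of their span in DPYD, 0.0495% in DLG2 and 0.169% in ENSG00000176124.15, so the absence of overlaps there says little. Over all named protein-coding genes, the intron peaks lay slightly more often in the first of 5 bins (22.8% and 23.9%) than in the last (15.4% and 14.8%).

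**Figure D2:**
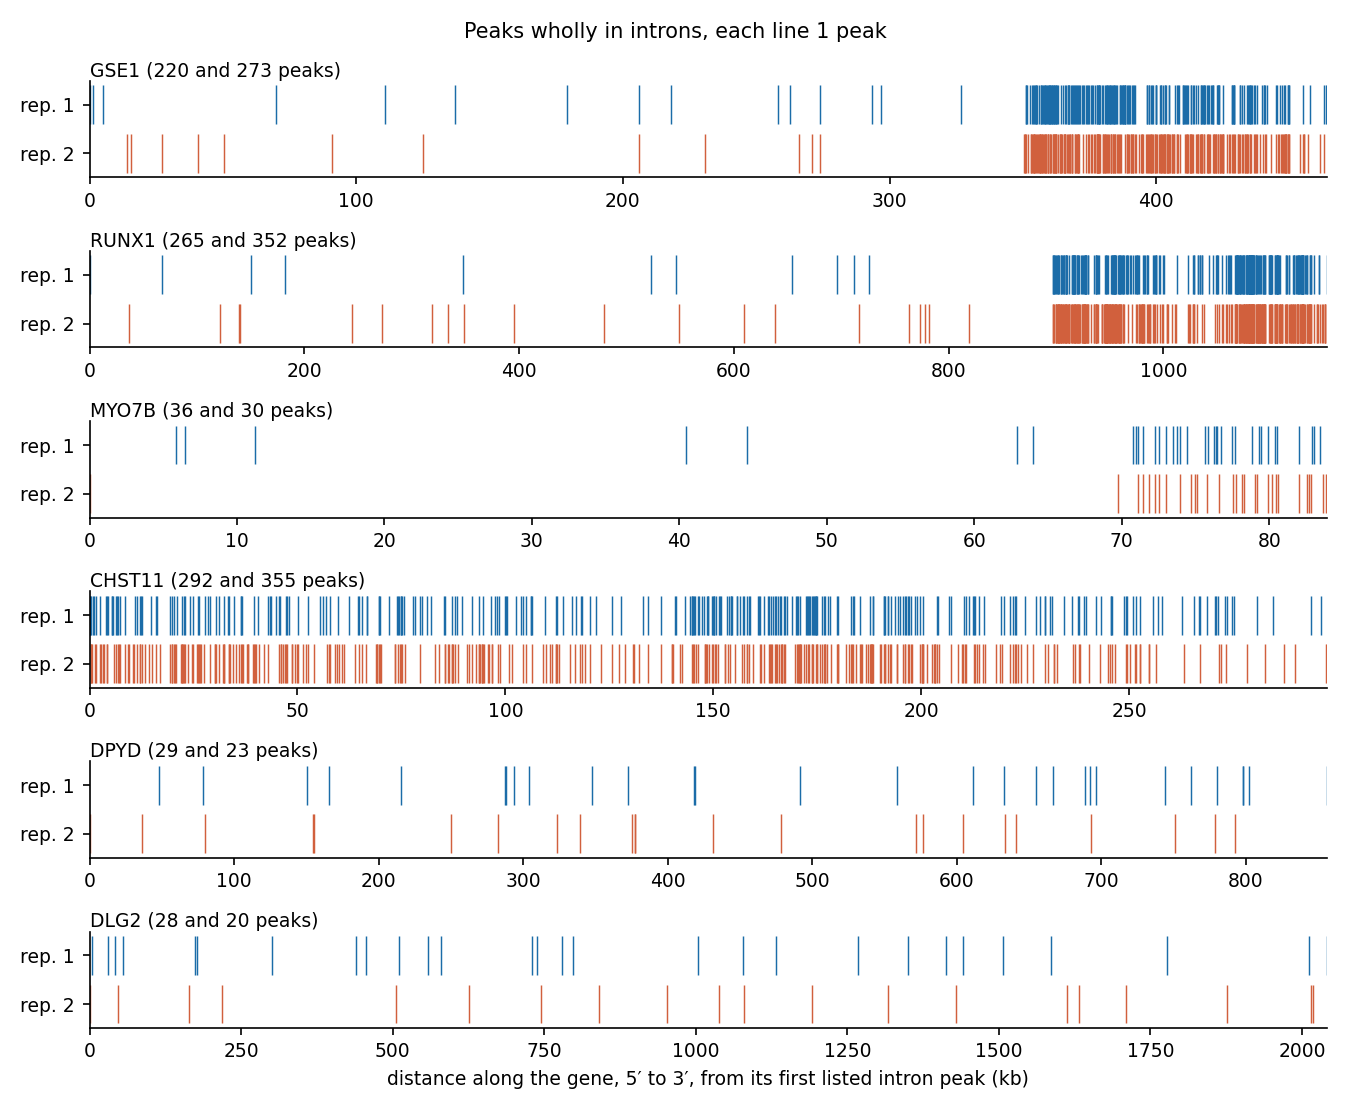
Position of each peak wholly in introns along 6 genes, in kb from the first listed peak in the 5′ to 3′ direction, with replicate 1 above replicate 2. GSE1 and MYO7B have a dense block toward the 3′ end in both libraries, RUNX1 has sparse peaks far 5′ of its dense part, CHST11 has peaks in every part, and DPYD and DLG2 have scattered single peaks.

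Genes of the T-ALL set, taken from the study, were described by their counts, beside 12532 named protein-coding genes, of which 48.4% had an intron peak in both libraries with a median of 1 peak in each. The study had picked all of these genes from an overlap of the same 2 libraries with its RNA-seq data. Their having peaks is therefore not independent evidence. Of 12 identified T-ALL genes, 11 had an intron peak in both libraries, with a median of 7 and 5.5 peaks. Gene length was not matched in this comparison. RUNX1 supplied 265 of the 382 peaks in replicate 1 and 80 of the 87 overlapped ones. BCL11B, a transcription factor of T-cell commitment, held 53 and 76 peaks with 6 overlapped. NOTCH1, the receptor most often mutated in T-ALL, had 7 and 13 intron peaks of at most 5 and 9 tags, none overlapped, beside 28 and 37 peaks mainly in CDS. RPL11, a ribosomal protein, had no intron peak, and NKX2-1 had no identifier assigned.

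All 14 T-lineage transcription factors had intron peaks in both libraries, beside 48.4% of all named protein-coding genes, with medians of 20.5 and 24. Peak number moved with gene length, and these factors were not set against genes of like length or peak density. Whether their counts and overlap differ from those of such genes was not tested. TCF7, a WNT-pathway factor of T-cell development, held 48 and 69 peaks, of which 19 were overlapped. ETV6, an ETS repressor, held 55 and 59 with 6 overlapped, TOX, an HMG-box factor, 53 and 58 with 7 overlapped, and IKZF1, the Ikaros zinc-finger factor, 37 and 46 with 5 of replicate 1 overlapped. GATA3 had 2 and 2, and TAL1 and RUNX3 had 1 in each. In sum 45 of the 344 peaks of replicate 1 in this group (13.1%) were overlapped, against 3.30% over all named protein-coding genes. TCF7 supplied 19 of these 45, and GATA3, TAL1, ETS1, RUNX3, BACH2 and FOXP1 supplied none. Antisense peaks numbered 50 beside 344 intron peaks in replicate 1 and 40 beside 394 in replicate 2, or 6.88 and 9.85 intron peaks per antisense peak.

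The large genes of common fragile sites also held many intron peaks. Peak number moved with gene length, and these genes were not set against others of like length. Their difference from other genes was not tested. All 15 had intron peaks in both libraries, beside 48.4% of all named protein-coding genes, with medians of 27 and 20 peaks. In replicate 1, 4 of their 459 peaks (0.871%) were overlapped, beside 3.30% over all named protein-coding genes. Antisense peaks of the same genes numbered 329 and 253, which made 1.40 and 1.59 intron peaks per antisense peak, near the 1.78 and 2.06 over all named protein-coding genes. WWOX, with 87 and 118 intron peaks and 16 and 23 antisense peaks, held 3 of the 4 overlapped peaks, and LPP, a focal adhesion protein, held the other. DLG2 had more antisense peaks (35 and 34) than intron peaks (28 and 20), and so had MACROD2, a mono-ADP-ribosylhydrolase, with 34 and 29 against 33 and 20, and CNTNAP2, a neurexin family member, with 35 and 27 against 27 and 19. RBFOX1, a neuronal splicing factor, had 42 intron peaks in each library with 39 and 23 antisense ones. The highest peak in any gene of this group had 8 tags.

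**Figure D3:**
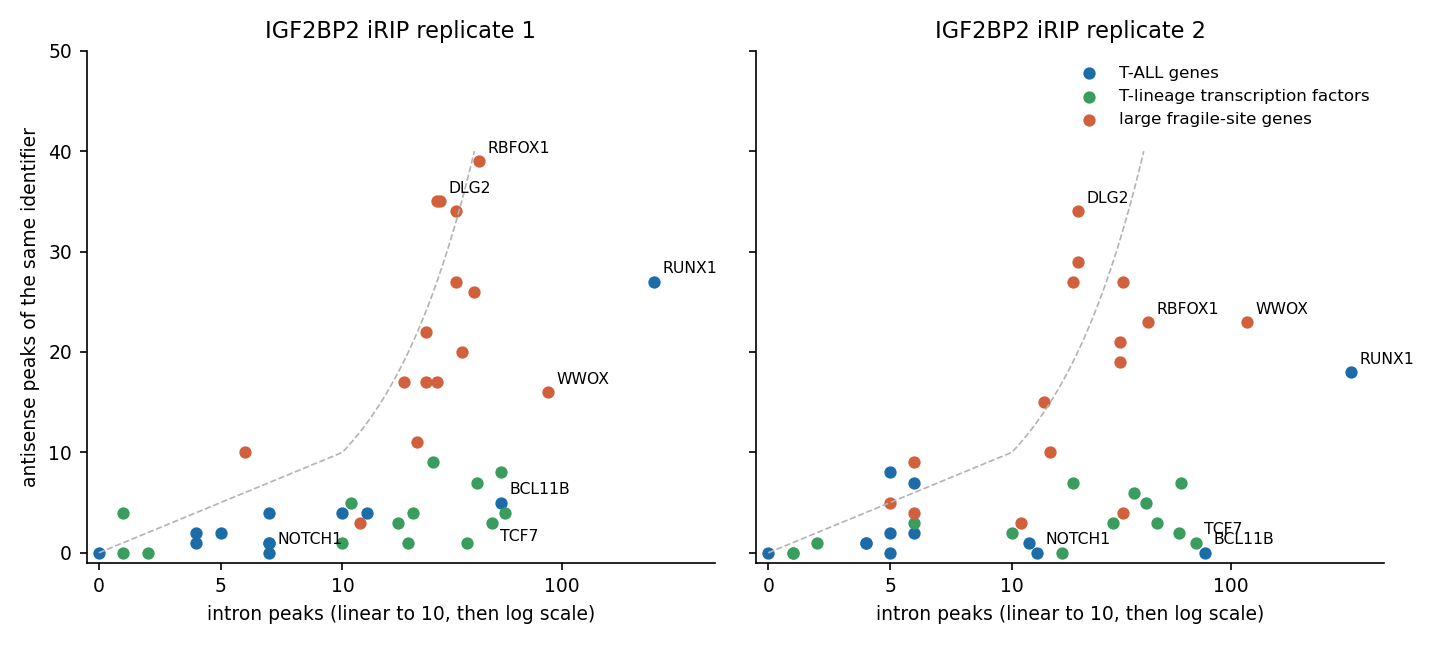
Antisense peaks (y axis) against peaks wholly in introns (x axis, linear to 10 and then on a log scale) for the T-ALL genes, the T-lineage transcription factors and the large fragile-site genes; the dashed curve marks equal numbers. RUNX1 has 265 intron peaks and 27 antisense peaks in replicate 1, while DLG2 lies above the curve with 28 and 35.

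Markers of cell types were looked up among the peaks. Of 9 T cell markers, 6 had an intron peak in replicate 1 (66.7%) and 8 in replicate 2 (88.9%), beside 67.2% and 62.7% of all named protein-coding genes, and nothing about the label was read from these counts. The markers with most peaks were ZAP70, a T-cell receptor kinase, with 13 and 14 and CD247, the receptor zeta chain, with 11 and 12. Peak counts are not expression levels, and intron length moves with them. Of the 5 B cell markers 3 were identified, with PAX5, a B-lineage factor, holding 4 in each library and as many as 4 and 3 antisense peaks. Of the 4 myeloid markers 2 were identified, with 1 intron peak in CSF1R, a growth factor receptor, in each library.

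The tallest intron peaks found in both libraries belonged to few places. By the lower of the 2 heights the first was in SLCO5A1, an organic anion transporter family member, where it had 37 and 26 tags at chr8:69690250-69690350. It was 1 of 3 intron peaks of that gene in each library, had a peak on the opposite strand in replicate 1, and stood beside 5 and 4 antisense peaks of the gene. GLB1L3, a galactosidase-like protein, had a peak of 21 and 16 tags at chr11:134308500-134308550, and ELOVL5 one of 15 and 13 tags at chr6:53327500-53327550. A peak of ENSG00000258472.9 inside the interval of SPAG5, a mitotic spindle protein, had 23 and 19 tags at chr17:28598850-28598900. One of ENSG00000106246.18 inside ATP5MF, a subunit of ATP synthase, had 16 and 21 tags. Further peaks were those of ENSG00000141979.4 inside CHERP and of ENSG00000250349.3 inside TSPAN7, each with 11 and 11 tags, and of ENSG00000257379.1 inside PCBP2, with 10.8 and 15.7 tags.

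Several of these peaks were intronic to one identifier and lay inside another gene on the same strand. The identifier ENSG00000288630.1, with no CDS or UTR peak, had 33 and 27 intron peaks within the interval of ATXN2L, an ataxin-2-like RNA-binding protein of stress granules, 18 of them overlapped in each direction, with maxima of 38 and 23 tags. No peak on that strand within ATXN2L carried another identifier. The same identifier had 12 and 10 intron peaks within LAT, the T-cell adaptor protein, and 7 and 9 within NFATC2IP, an NFAT-interacting protein. HNRNPA1, an abundant splicing factor, showed the same arrangement: all 9 and 5 sense peaks within it were intronic to ENSG00000258344.1, with maxima of 50 tags in each library and 2 overlapped. Within PCBP2, a poly(C)-binding protein, peaks of its own identifier (5 and 4, none wholly intronic) lay beside the peaks of ENSG00000257379.1. Exon positions were not used here, so whether such peaks fell on exons of the inner gene was not tested.

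Ribosomal RNA genes carried 45 and 49 of the intron peaks, counted with the strand of those genes ignored. Among intron peaks of 20 tags and above they made up 7 of 13 in replicate 1 and 14 of 28 in the other library. ENSG00000280441.3, over the 45S ribosomal RNA genes of chromosome 21, held 42 and 39 intron peaks with maxima of 45 and 131 tags, 9 of them overlapped, and 42 and 51 antisense peaks. The repeated copies of these genes are near-identical, so the assignment of reads among them is uncertain. Without peaks on ribosomal RNA genes the share of intron peaks with at least 10 tags was 0.191% and 0.862%, and 42.7% and 34.8% of those tall peaks were overlapped.

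Small RNA genes inside introns carried 19 intron peaks in replicate 1 and 27 in replicate 2. Except for microRNA genes the strand was ignored, so such a peak need not lie on the strand of the small RNA. Of these, 11 and 16 lay on snoRNA genes, which guide ribosomal RNA modification, and 4 and 3 on scaRNA genes, their counterparts in Cajal bodies. SCARNA21, in the chromatin remodeller gene CHD3, had a peak of 5.33 and 9.67 tags at chr17:7906050-7906200 in both libraries. SNORD10, in an identifier over EIF4A1, a translation initiation helicase, had 5 and 9 tags and was the only snoRNA gene with a peak in both. SNORA73A in RCC1 reached 17 tags in replicate 1 and SNORD17 in SNX5 reached 12 tags in replicate 2, each without a peak in the other library. Of 19 listed snoRNA host genes 14 were identified. SNHG1, SNHG5, SNHG6, SNHG12 and GAS5 had no identifier assigned and are left out of the shares. Of the 14, 4 had an intron peak in both libraries (28.6%) and the median was 0 in each. Over all named protein-coding genes the values were 48.4% and a median of 1, with gene length not matched.

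MicroRNA genes carried 4 and 8 intron peaks, with 4 to 7 tags, none overlapped by the other library. MIR425, within DALRD3, was the only one with a peak in both, of 4 tags at chr3:49020200-49020250 and 6 tags at chr3:49020050-49020150, and its neighbour MIR191 had 5 tags in replicate 2. MIR30E in NFYC had 5 tags and MIR2467, in HDAC4, had 6 tags, both in replicate 2. The mature sequences of these microRNAs, from RefSeq (GRCh38.p14), are shown to identify them, with the seed (bases 2 to 8) in capitals. They need not lie under the peaks: miR-425-3p lies in neither MIR425 peak, and miR-191-5p lies outside the MIR191 peak.
miR-425-3p: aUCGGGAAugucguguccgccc
miR-191-5p: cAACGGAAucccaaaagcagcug
miR-191-3p: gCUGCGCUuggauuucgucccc
miR-30e-5p: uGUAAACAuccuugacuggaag
miR-2467-3p: aGCAGAGGcagagaggcucagg
No 2 of these 5 seeds were the same.

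Some intron peaks lay at annotated transcription starts, in an intron of a longer transcript of the same or an overlapping gene. In each library 70 intron peaks lay wholly within a RefSeq promoter window, from 250 bases before to 50 after the start. Of these, 9 and 8 were overlapped by an intron peak of the other library. The sequences of the 7 shared peaks that both libraries placed at the same start and end are shown on the peak strand; capitals mark GGAC, the core motif of m6A.
TPI1, chr12:6867900-6868050, plus strand: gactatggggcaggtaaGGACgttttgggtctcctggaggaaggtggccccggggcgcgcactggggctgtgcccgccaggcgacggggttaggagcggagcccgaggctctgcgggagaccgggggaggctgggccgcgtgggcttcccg
RELT, chr11:73376550-73376600, plus strand: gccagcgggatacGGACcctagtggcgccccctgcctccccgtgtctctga
PFKP, chr10:3067800-3067850, plus strand: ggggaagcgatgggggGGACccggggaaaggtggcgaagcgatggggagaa
BRD2, chr6:32972950-32973000, plus strand: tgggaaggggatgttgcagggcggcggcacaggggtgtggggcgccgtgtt
MYL6, chr12:56158350-56158400, plus strand: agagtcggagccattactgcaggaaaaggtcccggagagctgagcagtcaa
CYTH1, chr17:78717200-78717250, minus strand: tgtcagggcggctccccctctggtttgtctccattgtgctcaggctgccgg
NME2, chr17:51166400-51166500, plus strand: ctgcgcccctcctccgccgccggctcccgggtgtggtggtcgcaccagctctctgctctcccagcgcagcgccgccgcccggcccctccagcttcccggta

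The peak at TPI1, a glycolytic isomerase, had 9.67 and 12.7 tags. The one at RELT, a receptor of the TNF family, had 8 and 7 tags, and that at PFKP, a phosphofructokinase, had 5 and 10. At BRD2, a bromodomain protein, the heights were 4 and 10 tags, and at MYL6, a myosin light chain, they were 7 and 12, listed there as an intron of MYL6B. The CYTH1 peak had 4 and 5 tags, and that at NME2, a nucleoside diphosphate kinase, had 6 and 9, listed under ENSG00000011052.21. Of these 7 sequences 3 held GGAC. The letters GGAC, searched on the peak strand, were present in 14 of 65 intron peaks of 51 bases in promoter windows in replicate 1 (21.5%) and 14 of 66 in replicate 2 (21.2%). Of all 51-base stretches of the RefSeq promoter windows, 17.0% held them on the gene strand and 31.4% on either strand. The sequence of the other intron peaks was not analysed here.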

How the data were processed

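iRIP-seq peak lists of 2 IGF2BP2 immunoprecipitations from Jurkat cells were analysed. The authors aligned 150 bp read pairs (KAPA library kit) with TopHat 2, kept uniquely mapped reads and called peaks in each library with ABLIRC. They removed peaks overlapping input peaks. The submitters' processing notes name bcl2fastq, TopHat2 and GRCh38, and the annotation release is not given in the sources used here. The deposited height (tags) is a signal that is not scaled to library size, and the deposited p-value of a peak was at most 0.00759 and 0.00437. Removal of input peaks and of multiply mapped reads changes which introns can be listed.

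Peaks start on a 50-nt grid. Overlap needed 1 shared base on the same strand unless stated. For ribosomal RNA, snoRNA, scaRNA and small nuclear RNA genes the strand was ignored. For microRNA genes it had to be the same. Identifiers were named from the RefSeq table: the only protein-coding gene, with a 1000-nt margin, holding at least 80% of the CDS and UTR peaks, or, without such peaks, the only coding or lncRNA gene of at least 10000 nt holding 80% of all peaks. This named 14528 of 20428 identifiers; some read-through identifiers may carry the name of a gene inside them. Genes were named in the text if among the 10 with the most intron peaks (lower library), the 10 with the highest shared peak, the 5 most clustered or 5 most even, or in a fixed list; genes shown for tall peaks, small RNAs or promoter windows were chosen after their values were seen. The members and lists were chosen with earlier results of these data known. Peak shares have 95% Wilson intervals, and classes were compared by Fisher's exact test (scipy 1.17.1, pandas 2.3.3, Python 3.11.15). The overlap and spacing code was tested on simulated data. Alternatives were peak height, peak p-value, definition of an intron peak, overlap, strand and spacing limits, and the libraries taken singly.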

Additional observations from a re-analysis of the deposited data

How the results depend on the processing

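Intron peaks remained less often overlapped than CDS peaks under each alternative tried, by 14.8 to 23.9 percentage points as a mean of the 2 libraries (23.2 as reported), with a larger Fisher exact p of 0.00321 when both lists were limited to at least 10 tags; the libraries singly gave 27.6 and 18.8 points as reported, 33.8 and 12.8 with at least 5 tags in both lists and 24.3 and 5.24 with at least 10. Other values moved with the peaks kept. With at least 10 tags in both lists, intron peaks were 4.49% of all peaks (31.1% as reported), 11.4% of them were overlapped (3.06%), 36 identifiers were shared (8937), 32.0% of neighbours lay within 1000 nt (14.9%), 4.31% had an opposite-strand peak (0.649%) and 2 lay on small RNA genes (a mean of 23). With at least 5 tags the intron share was 27.8%, the overlapped share 4.57%, the opposite-strand share 0.510% and the shared identifiers 3963. All peaks had a p-value under 0.01, so a stricter limit was used. With peak p-values under 0.001 the intron share was 15.7%, the share with at least 10 tags 7.46% (0.574%), the overlapped share 5.75%, the shared identifiers 463, the share of near neighbours 26.3% and the opposite-strand share 0.792%. Counting peaks with intron as the largest region gave 35.1%, 2.36% with at least 10 tags, 7.12% overlapped and 0.619% with an opposite-strand peak. The overlapped share was 3.31% with strand ignored, 5.03% with touching peaks counted and, chosen after seeing the data, 2.33% without the 10 identifiers richest in intron peaks. The opposite-strand share was 0.638% when 50% of the length had to be shared and, also chosen after seeing the data, 0.621% without ribosomal RNA genes. Near neighbours were 9.41% within 500 nt and 34.8% within 5000 nt. The cause of these shifts beyond the peaks left out was not tested. The share with at least 10 tags was 0.227% in replicate 1 and 0.921% in replicate 2, which have different minimum heights; each library on its own lies within 1 SD of the mean of 2 by construction. Depth is unknown, so heights were not compared between libraries. No paired analysis was possible because no peak list of an input library entered the comparisons and all peaks came from 1 condition.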

Other observations

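Some of the tallest intron peaks were listed in 1 library alone. An intron peak of CROCC, a ciliary rootlet protein, at chr1:16740500-16740550 lay on the small nuclear RNA gene RNU1-4, strand ignored, and had 80 tags in replicate 2. EAPP, an E2F-associated protein, had an intron peak of 37 tags at chr14:34517900-34517950 in replicate 2, with a peak on the opposite strand. The peaks of 50 tags within HNRNPA1 were at different places, chr12:54282050-54282100 in replicate 1 and chr12:54284250-54284300 in replicate 2. These peaks were chosen after their values were seen. Of the microRNA host genes, EVL held 19 and 21 intron peaks, none of them overlapped, and DLEU2 held 10 and 19, of which 2 were overlapped.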
